A study of Mus musculus with 66 samples.

Results

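The genes described here are the integrins, cadherins, protocadherins, catenins, ephrins, Eph receptors and semaphorins of the mouse testis between birth and adulthood. They were chosen by symbol: a gene was a member if its symbol in the array annotation began with Itga, Itgb, Cdh, Pcdh, Ctnn, Efna, Efnb, Epha, Ephb or Sema followed by a digit or letter. Cdh5, a cadherin of blood vessels, was left out by that rule. The annotation named 125 such genes, and 85 of them were measured, out of 13472 genes measured in all. A gene counted as measured if a probe set that named it alone reached a scaled signal of 50 on at least 2 of the 22 arrays of its type, and the brightest such probe set stood for the gene. Another 26 members stayed under that signal, among them Itga5, Itgam, Itgal, Itgb2, Itgb4, Efna1 and Epha4, and 14 Pcdha genes were named only on probe sets shared with other genes. The measured members were 15 genes with an Itga symbol, 8 with an Itgb symbol, 10 cadherins and cadherin-related genes, 10 protocadherins, 9 genes with a Ctnn symbol, 3 A-type and 3 B-type ephrins, 8 EphA and 3 EphB receptors, and 16 semaphorins. The symbol rule also took in genes that are not subunits of these families: Itgb3bp encodes a centromere protein, Ctnnbl1 a spliceosome-associated protein, Itgbl1 a secreted protein with integrin-like repeats, and Ctnnbip1 an inhibitor of β-catenin.

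The study followed testes of BL/6-129 mice at days 0, 3, 6, 8, 10, 14, 18, 20, 30, 35 and 56 after birth, and no treatment or transgene is named in the labels. Total testis RNA of 2 numbered samples per day was hybridised to 3 types of array (A, B and C), or 66 arrays in all. The labels do not say whether the samples of a day came from separate animals, so p-values measure only the spread between these samples. The comparisons are between ages, with the later day set against the earlier one, and they cover the span in which germ cells first pass through meiosis and become spermatids.

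Integrins are pairs of an α and a β subunit that hold cells to the extracellular matrix and signal through adaptors and kinases at their cytoplasmic tails. Classical cadherins bind the same cadherin on a neighbouring cell, and catenins tie them to actin, with β-catenin also acting as a transcriptional partner in Wnt signalling. Ephrins are membrane-bound ligands of the Eph receptor tyrosine kinases, and semaphorins signal mostly through plexins and neuropilins. In the testis such proteins are known from Sertoli cell junctions, from the basement membrane that spermatogonia and peritubular cells rest on, and from vessels and nerves of the interstitium.

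Signals were analysed as log2(signal + 16), which understates the change of dim probe sets. A gene was called where limma gave an adjusted p below 0.05 and the change reached 2-fold on that scale, and p-values were adjusted over all 13472 genes. All changes below are log2 changes ± SE, with 2 samples per day. The RNA came from the whole testis and all arrays share one mean signal, so a fall is relative to the other RNA of the sample. Fewer cells of a type, less RNA per cell and more RNA from other cells cannot be told apart. The 2 samples of a day correlated least at day 0, with r over probe sets of 0.89, 0.809 and 0.786 on array types A, B and C. On types A and B the next lowest r was at day 20, at 0.897 and 0.827. On type C day 20 stood at 0.878, above days 3 and 6 at 0.799 and 0.877. The filter was passed on only 2 or 3 arrays by 8 members, while 33 reached a signal of 50 on all 22 arrays. The dimmest member inside the filter was Epha3, whose second-highest signal was 50.8, and the nearest genes outside it were Cdh8 at 48.6 and Pcdh19 at 48.2. Called members that reached a signal of 50 only at early days include Epha2, Epha3, Itgb8, Cdh11 (up to day 14), and Itga6 and Efnb2 (up to day 18). Those that reached it only at late days include Itga2, Epha6 and Itgae. All of these had to read lower on other days, so their calls are descriptions.

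Over the 11 days, 42 of the 85 members (49.4%) changed, against 54.4% of all genes measured, so the share of changing members was near that of the array. Among the 42, the mean of log2(signal + 16) was highest at day 0 in 13 members and at day 3 in 10, and at day 30 or later in 7. Across all 7326 genes called, 19.7% were highest at day 0 and 10.4% at day 3, against 31.0% and 23.8% of the called members. The families contributed 9 of 15 Itga genes, 5 of 8 Itgb genes, 4 of 10 cadherins, 4 of 10 protocadherins, 4 of 9 Ctnn genes, 1 of 3 A-type and 2 of 3 B-type ephrins, 5 of 8 EphA and 1 of 3 EphB receptors, and 7 of 16 semaphorins. On the log2(signal + 16) scale the widest course was that of Efna5, whose highest and lowest days lay 5.39 apart.

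**Figure D1:**
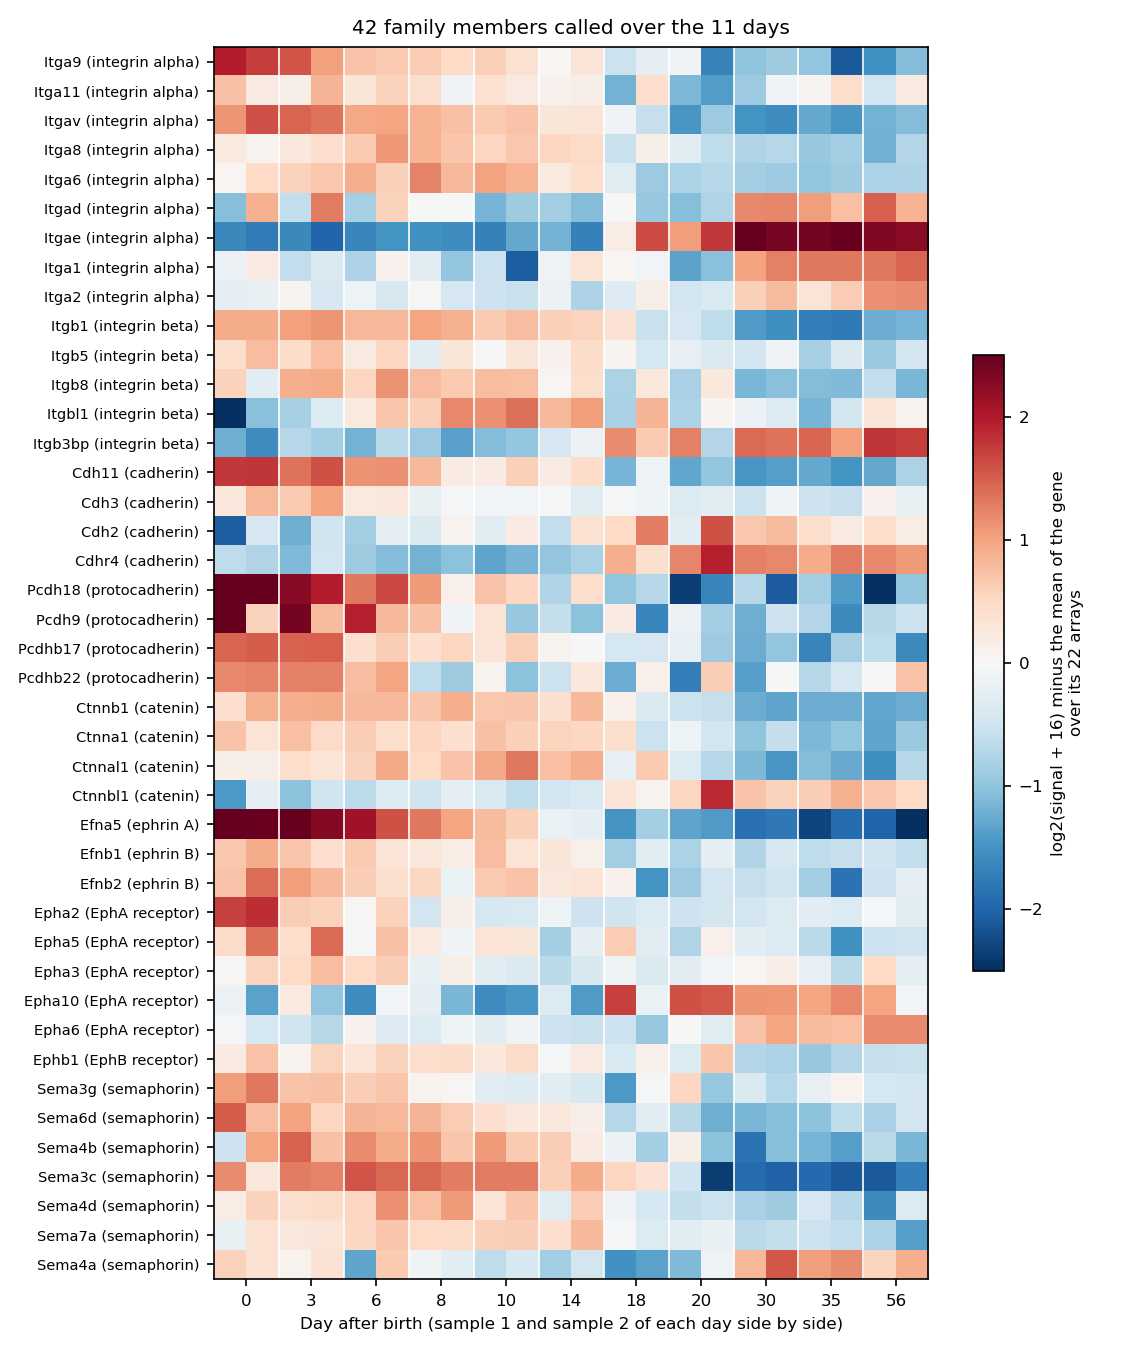
Each row is one of the 42 members called over the 11 days, and each column is a sample, with both samples of a day side by side. Colour gives log2(signal + 16) minus the mean of that gene over its 22 arrays, and values beyond the ends of the scale take the end colour. Most rows are red at days 0 and 3 and blue from day 20 on. Rows of the opposite kind include Itgae, Cdhr4 and Itgb3bp.

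Between day 56 and day 0, 36 of the 85 members (42.4%) were called, against 37.1% of all genes. Of these, 27 fell, where 21.2% of all genes were called lower, and 9 rose, where 15.9% of all genes were called higher. The median change was -0.56 over the members and -0.21 over all genes measured. When each array was scaled to its median, these medians were -0.39 and -0.04, and the counts of members were 10 higher and 22 lower. The largest falls were those of Efna5, Pcdh18, Itga9, Cdh11 and Sema3c, and the largest rises those of Itgae, Itgb3bp, Itgbl1, Cdhr4 and Cdh2.

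Many cell type markers moved strongly over the same interval. The summed signal of the 10 Sertoli cell markers was 2953 to 3064 at day 56 and 5488 to 6331 at day 0, with 5 of them called lower and 2, Cldn11 (1.24) and Rhox5 (1.36), called higher. For the 5 peritubular markers it was 516 to 567 at day 56 and 1728 to 3159 at day 0, and for the 5 endothelial markers measured of 6 it was 155 to 320 at day 56 and 1078 to 1828 at day 0. In both lists 3 markers were called lower and none higher, and the peritubular Des (0.23) and endothelial Pecam1 (0.11) did not fall. The 8 spermatocyte markers summed to 24689 to 25444 at day 56 and 551 to 697 at day 0, and the 8 spermatid markers to 50943 to 55614 at day 56 and 375 to 422 at day 0. The 7 spermatogonial markers measured of 8 summed to 4106 to 4374 at day 56 and 651 to 879 at day 0. Of these, 3 were called higher, Stra8, Dmrtb1 and Ddx4, and 2 lower, Zbtb16 and Gfra1. Kit (0.45) and Uchl1 (-0.01) were not called. Most of the day 56 sum came from Dmrtb1, with 1987.7 and 2417.8, and Ddx4, with 1520.6 and 1499.5. At day 0 Dmrtb1 read 2.6 and 12.2, and Ddx4 73.0 and 98.4. The 5 macrophage markers measured of 6 summed to 396 to 399 at day 56 and 427 to 457 at day 0. The 7 Leydig cell markers measured of 8 summed to 1832 to 1873 at day 56 and 2786 to 3767 at day 0. Of these, 3 were called lower and 1, Hsd3b6 (2.09), higher, and Cyp17a1 (0.66) and Insl3 (0.06) did not fall. The 2 erythroid markers measured of 5 summed to 488 to 712 at day 56 and 4681 to 8517 at day 0, and the 1 adipocyte marker measured of 4 read 201 to 216 at day 56 and 21 to 33 at day 0. None of the 5 epididymal markers passed the signal filter. The part of these shifts in the changes of the members was not tested.

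**Figure D2:**
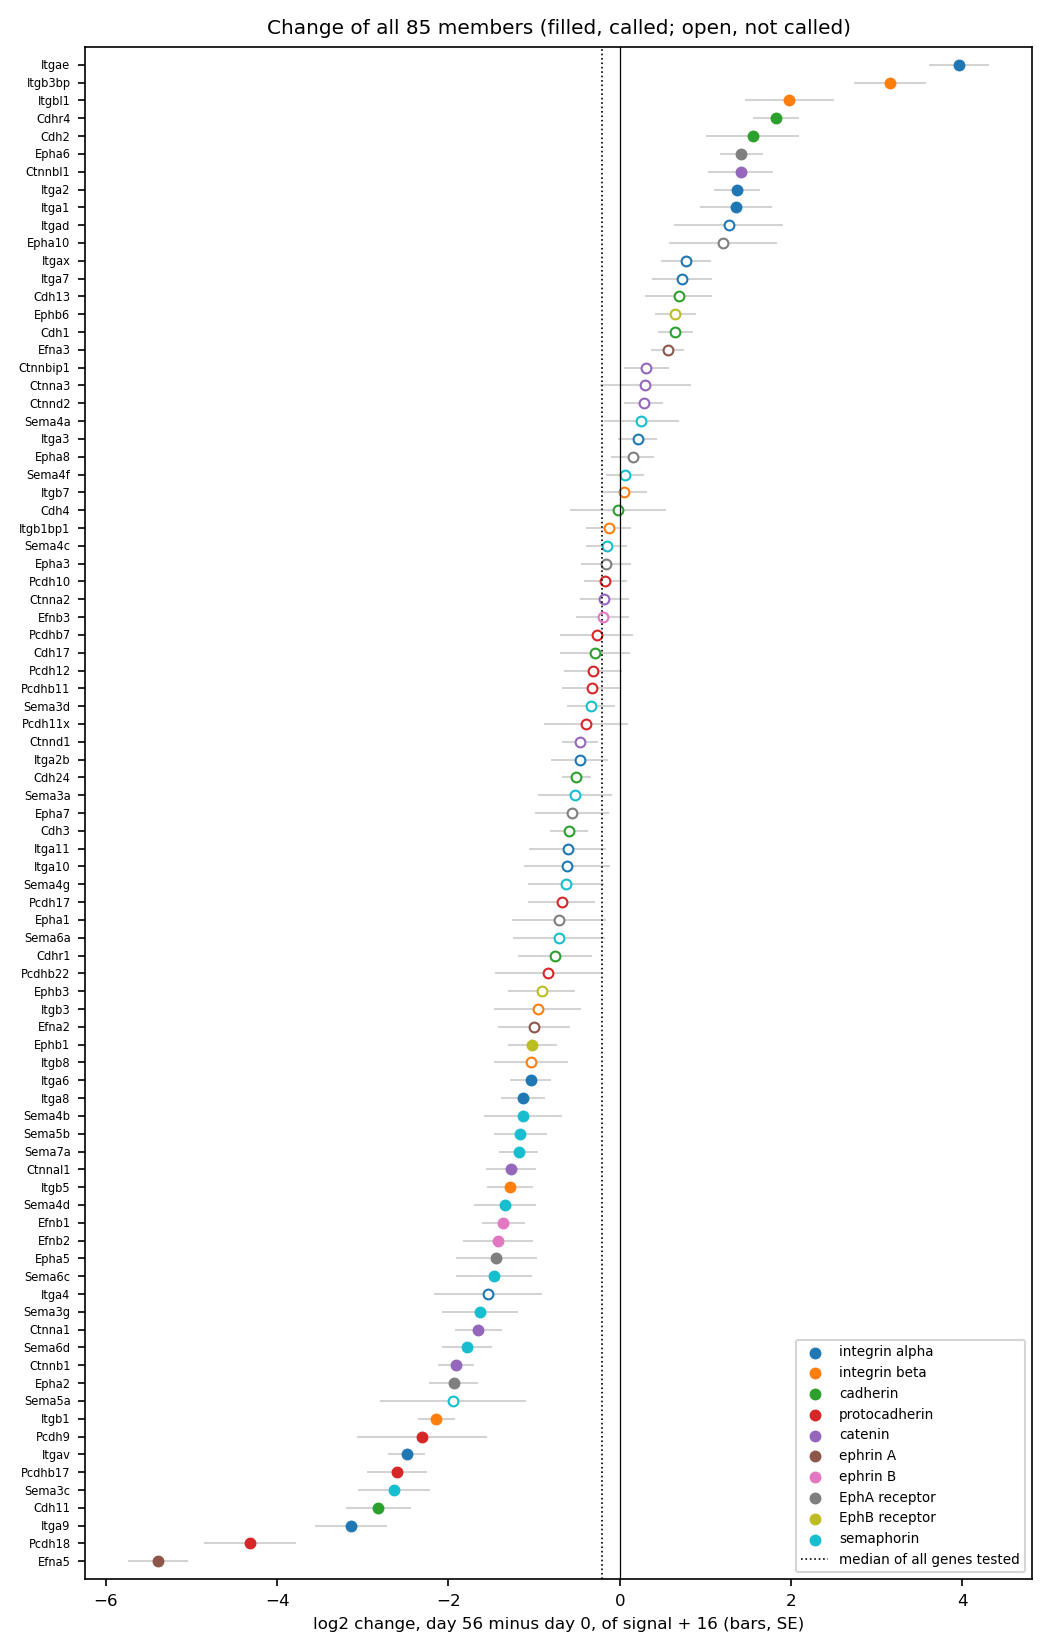
Each point is a member's log2 change at day 56 relative to day 0, on the scale of signal + 16, with its SE as a bar and 2 samples per day. Filled points were called, colours give the family, and the dotted line is the median of all genes, -0.21. Efna5 lies at -5.39 and Itgae at 3.96.

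Day 20 against day 14 held the most calls among the successive intervals. Between day 20 and day 14, 16 members (18.8%) were called against 15.9% of all genes, with 4 higher against 7.45% of all genes and 12 lower against 8.41%. The 4 that rose were Itgae, Cdhr4, Epha10 and Ctnnbl1, and the 12 that fell were Sema3c, Pcdh18, Itgav, Cdh11, Itga11, Ctnnal1, Itga1, Efna5, Ctnnb1, Sema6d, Itgb1 and Itga6. With each array scaled to its median, 4 members were higher and 6 lower, and all genes split into 1320 higher and 649 lower in place of 1003 and 1133, as the median of all genes moved to 0.09 in place of -0.11. Without sample 2 of day 14 the count was 8. Over the same interval the 8 spermatocyte markers summed to 18418 to 23371 at day 20 and 5891 to 6269 at day 14, the 10 Sertoli markers to 3161 to 4374 at day 20 and 6880 to 7740 at day 14, the 5 peritubular markers to 864 to 1671 at day 20 and 1826 to 1932 at day 14, and the 8 spermatid markers to 253 to 366 at day 20 and 276 to 280 at day 14. Of the spermatocyte markers 5 were called higher and 1, Sycp1 (-1.67), lower, and Sycp3 (-0.4) was not called. Among the Sertoli and peritubular markers 3 and 1 were called lower and none higher, and no spermatid marker was called. Sample 1 of day 20 for the peritubular Acta2, 1147.2, lay above both day 14 samples, 1133.9 and 1016.9. The part of these markers in the changes of the members was not tested.

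Promoters are shown for Cdhr4, Epha10 and Ctnnbl1 from the RefSeq table of GRCm38.p6, because they are among the 4 members that rose together at day 20, and none is printed for Itgae. Each line gives 250 bases before and 50 after the annotated start, 5′ to 3′ on the gene's strand. The windows are chr9:107992207-107992506 for Cdhr4, chr4:124881535-124881834 for Epha10 and chr2:157737151-157737450 for Ctnnbl1, all on the plus strand. Letter patterns of factors known from meiotic and haploid germ cells were searched on both strands, and capitals mark a match.
Cdhr4: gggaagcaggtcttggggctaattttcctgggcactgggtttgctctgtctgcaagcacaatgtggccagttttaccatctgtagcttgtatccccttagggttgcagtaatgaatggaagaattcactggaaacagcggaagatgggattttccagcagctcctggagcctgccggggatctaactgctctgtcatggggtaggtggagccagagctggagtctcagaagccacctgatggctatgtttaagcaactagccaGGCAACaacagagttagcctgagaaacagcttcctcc
Epha10: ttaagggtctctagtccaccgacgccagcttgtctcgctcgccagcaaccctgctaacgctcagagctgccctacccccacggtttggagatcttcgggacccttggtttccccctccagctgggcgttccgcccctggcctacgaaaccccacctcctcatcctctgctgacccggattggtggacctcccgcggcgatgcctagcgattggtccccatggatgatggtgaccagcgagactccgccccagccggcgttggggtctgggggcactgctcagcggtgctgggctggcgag
Ctnnbl1: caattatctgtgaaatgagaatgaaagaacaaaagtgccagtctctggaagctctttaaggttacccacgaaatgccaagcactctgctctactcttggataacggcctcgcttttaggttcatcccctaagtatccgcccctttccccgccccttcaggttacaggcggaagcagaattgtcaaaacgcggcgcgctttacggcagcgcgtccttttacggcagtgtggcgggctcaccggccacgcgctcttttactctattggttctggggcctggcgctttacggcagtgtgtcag
The only match in these windows was GGCAAC in Cdhr4, the reverse complement of the RFX core GTTGCC, which 12.5% of all 32851 promoters in the table hold. The other patterns searched were the CREM cores TGACG, held by 20.8%, and TGACGTCA, held by 1.8% and containing the shorter one, and the MYB core CAACTG, held by 13.7%. Among the 82 promoters listed for 64 members, 11, 15, 1 and 9 held the RFX core, the shorter and the longer CREM core and the MYB core. These matches describe letters in the windows and not binding.

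Among the integrins, Itgb1 fell at day 20 and again at day 35. Itgb1 encodes β1, the subunit shared by most matrix-binding integrins. Its signals were 369.9 and 393.1 at day 56, against 1733.6 and 1727.0 at day 0. No sample up to day 14 read under 1341.3, and the mean was lowest at day 35, at 255.8 ± 5.16 (SD, n = 2). The change was -2.14 ± 0.22 between day 56 and day 0 (limma, adjusted p = 4.24e-07), -1.11 ± 0.22 between day 20 and day 14 (adjusted p = 0.00197) and -1.23 ± 0.22 between day 35 and day 20 (adjusted p = 0.000969). The other 2 probe sets of Itgb1 read lower as well, with changes of -2.11 and -2.73 at day 56 and of -1.2 and -1.85 at day 20. At day 35 they stood at -0.35 and -0.03 relative to day 20, and the call for that interval was lost when probe sets with a suffix letter were left out. The day 20 call was lost when arrays were scaled to their median (-0.81, adjusted p = 0.0345).

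The α subunits that pair with β1 or share its ligands did not all follow it. Itga6, a laminin receptor subunit carried by spermatogonia, had 33.7 and 34.1 at day 56 against 72.0 and 104.1 at day 0, and was highest at day 8 with 186.5 and 133.1. Its samples at day 20, 33.2 and 36.2, lay below those at day 14, 85.3 and 99.6 (-1.09 ± 0.24, adjusted p = 0.00336). That change fell short of 2-fold with median scaling (-0.87) and quantile normalization (-0.84), and without sample 2 of day 14 (-1.0, adjusted p = 0.0409). Between day 56 and day 0 the change of Itga6 was -1.04 ± 0.24 (adjusted p = 0.0015), and -0.82 without sample 2 of day 0. It was also under 2-fold with median scaling (-0.95), quantile normalization (-0.99) and a pseudocount of 64 (-0.63). Itga9, which binds tenascin and VCAM1, had 28.7 and 44.1 at day 56 against 482.8 and 404.8 at day 0, without overlap (-3.14 ± 0.42, adjusted p = 7.09e-06). It read 182.4 and 163.4 at day 8, a change relative to day 0 that was not called (-1.28 ± 0.42, adjusted p = 0.114). Itgav, the αv subunit of RGD-binding integrins, had 119.9 and 128.3 at day 56 against 645.5 and 923.5 at day 0 (-2.49 ± 0.22, adjusted p = 4.99e-08). At day 20 Itgav had 96.3 and 147.3, against 364.0 and 367.7 at day 14 (-1.5 ± 0.22, adjusted p = 0.00015). Both Itgav calls were lost with suffixed probe sets left out, where the dimmest of its 3 probe sets gave -0.79 (adjusted p = 0.189) for day 56 and -0.57 (adjusted p = 0.441) for day 20. Itga8, an RGD-binding partner of β1, also fell at day 56, as did Itgb5, a partner of αv, with changes of -1.13 ± 0.26 (adjusted p = 0.00198) and -1.28 ± 0.27 (adjusted p = 0.000734). Itga8 was under 2-fold without sample 1 of day 56 (-0.89), with median scaling (-0.82), quantile normalization (-0.95) and a pseudocount of 64 (-0.92). A second, dimmer Itgb5 probe set read at about the same level on both days. Itgb8, known for releasing active TGF-β, read at or under 2.2 in both samples at days 30 and 35 and 54.6 and 55.9 at day 3. It was called over the days but passed the filter only through 3 arrays of days 3 and 6, where it was high. Itgad, a partner of the leukocyte β2 subunit, was also called over the days (F-test, adjusted p = 0.0291) and read 117.3 and 118.4 at day 30 and 147.6 and 90.2 at day 56, but its samples at day 3 read 21.7 and 127.5. Itga10, Itga2b, Itga3, Itga4, Itga7, Itgax, Itgb1bp1 and Itgb3 were not called.

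The collagen receptor subunits ran differently. Itga11 had 15.4 and 10 at day 20 against 57.0 and 59.8 at day 14 (-1.38 ± 0.45, adjusted p = 0.0361), and 55.7 and 76.8 at day 35 against the same day 20 samples (1.51 ± 0.45, adjusted p = 0.0315). Both calls share these low day 20 samples, and each was lost when any 1 of its 4 samples was left out, with adjusted p between 0.0606 and 0.184. Itga1 dipped on the same day, with 45.3 and 59.3 at day 20 against 126.1 and 179.7 at day 14. That difference (-1.3 ± 0.42, adjusted p = 0.0365) was lost without any 1 of its 4 samples, with adjusted p between 0.0684 and 0.214. Itga1 then stood at 372.7 and 370.6 at day 35, above both day 20 samples (2.51 ± 0.42, adjusted p = 0.000539), and at 373.2 and 408.1 at day 56 against 124.2 and 162.7 at day 0 (1.36 ± 0.42, adjusted p = 0.0137). The day 56 call was lost without sample 1 of day 0 (1.18, adjusted p = 0.0806) or sample 2 of day 56 (1.3, adjusted p = 0.0691). A second and dim Itga1 probe set did not show either rise: it gave -0.02 for day 35 over day 20 and -0.68 for day 56 over day 0. Itga2, another collagen receptor subunit, had 111.0 and 113.6 at day 56 against 32.7 and 34.6 at day 0 (1.37 ± 0.27, adjusted p = 0.000434). It reached a signal of 50 only from day 30 on, and with a pseudocount of 64 the change was 0.85. With a minimum signal of 125 neither Itga2 nor Epha6 was tested.

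The largest rise of any member was that of Itgae, the αE subunit that in lymphocytes pairs with β7 to bind E-cadherin. Its day means were 8.3 ± 1.7, 6.7 ± 4.1, 10.3 ± 1.7, 11 ± 0.566, 12.25 ± 5.59 and 13.35 ± 7.14 at days 0, 3, 6, 8, 10 and 14 (SD, n = 2 each). From day 18 on they were 149.2 ± 109, 196.2 ± 73.0, 408.9 ± 34.1, 406.2 ± 16.1 and 361.6 ± 10.7 at days 18, 20, 30, 35 and 56. Every sample from day 18 on thus lay above every sample up to day 14. Itgae reached a signal of 50 on 10 arrays, all from day 18 on. It had to read lower earlier, so its calls are descriptions. The change was 2.83 ± 0.35 between day 20 and day 14 (limma, adjusted p = 3.45e-05) and 3.96 ± 0.35 between day 56 and day 0 (adjusted p = 6.24e-08), and a second probe set gave 2.66 and 4.1. Neither partner of αE was called with it. Itgb7 had 68.4 and 79.2 at day 56 against 66.5 and 75.2 at day 0, and was not called over the days (F-test, adjusted p = 0.475). Cdh1, which encodes E-cadherin, had 148.4 and 146.9 at day 56 against 90.1 and 86.9 at day 0, and was not called over the days either (adjusted p = 0.27). Its samples at day 56 did not overlap those at day 0, and that change, 0.65 ± 0.2 (adjusted p = 0.013), was under 2-fold.

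In the RefSeq gene table of GRCm38.p6, Haspin lies wholly inside the span of Itgae on chromosome 11. Haspin encodes a histone H3 kinase, and its promoter in the mouse testis is known to start an Itgae-derived transcript as well. Haspin has a probe set of its own, which was looked up after the course of Itgae was seen. It read 268.5 and 477.1 at day 20 against 20.2 and 31.0 at day 14 (3.18 ± 0.42, adjusted p = 6.48e-05), and 564.6 and 696.2 at day 56 against 10.1 and 32.2 at day 0 (4.18 ± 0.42, adjusted p = 2.88e-07). Whether the Itgae probe sets read transcripts of both genes was not tested. Among the 85 members, 18 overlap another protein-coding gene in that table, and 6 of the overlapping genes were measured. Of the 18, 8 were called over the days, where 49.4% of all members and 54.4% of all genes were.

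The remaining Itgb symbols include a pair of non-integrins. Itgb3bp had 767.2 and 735.3 at day 56 against 81.5 and 60.2 at day 0 (3.15 ± 0.42, adjusted p = 7.72e-06). Its samples at day 20 disagreed, at 529.5 and 121.4. Itgbl1 rose first, with 225.4 and 351.8 at day 8 against 12.1 and 61.8 at day 0 (2.67 ± 0.52, adjusted p = 0.00814), was highest at day 10, and read 184.3 and 154.3 at day 56. Both Itgbl1 calls rested on sample 1 of day 0: without it the changes were 1.94 (adjusted p = 0.0745) at day 8 and 1.25 (adjusted p = 0.0868) at day 56, and the day 8 call was also lost without sample 2 of day 8 (2.37, adjusted p = 0.105).

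**Figure D3:**
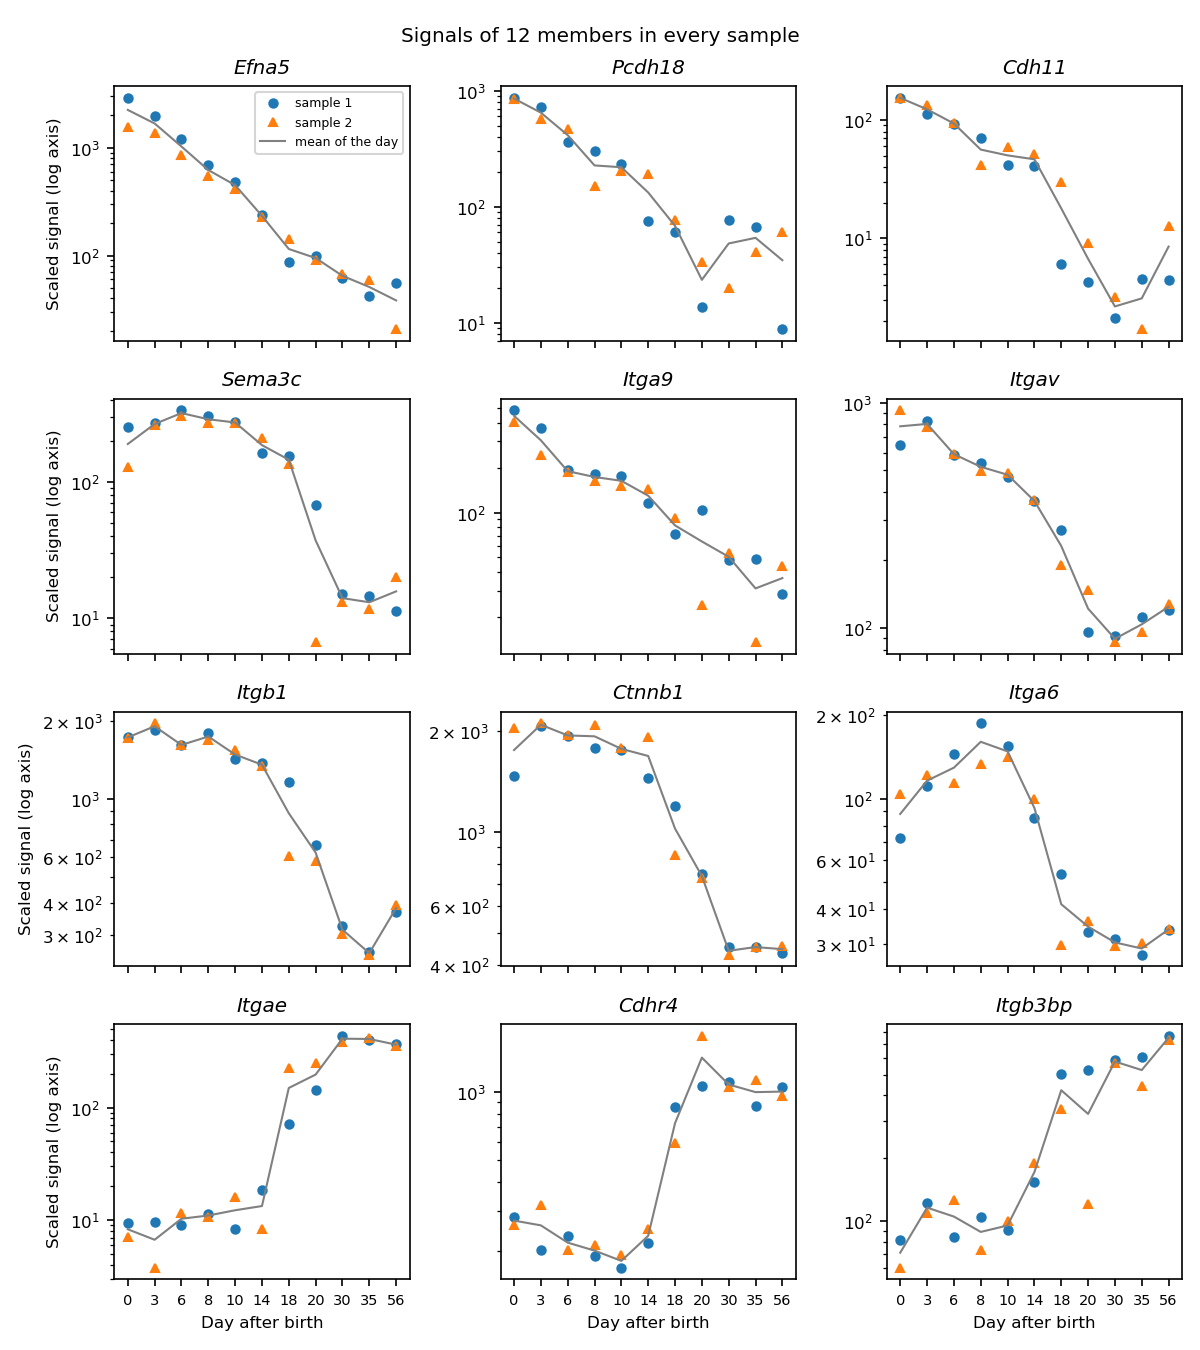
Signals of 12 members are plotted by day on log axes, with circles for sample 1, triangles for sample 2 and a line through the day mean. Efna5, Pcdh18, Cdh11 and Itga9 decline from day 0 on, Itgb1 and Ctnnb1 decline mostly after day 14, and Itgae and Cdhr4 are high from day 18 on. Itga6 has its highest mean at day 8 and is already lower at day 14. Itgb3bp is high from day 18 on except in sample 2 of day 20, at 121.4.

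Among the cadherins, the mesenchymal Cdh11 fell and the neural Cdh2 rose. Cdh11 had 4.4 and 12.6 at day 56 against 153.1 and 154.9 at day 0, without overlap (-2.82 ± 0.38, adjusted p = 1.06e-05). A second, dimmer Cdh11 probe set gave -1.03 for day 56 over day 0 and -0.4 for day 20 over day 14. Cdh11 reached a signal of 50 on 9 arrays, all up to day 14, so it had to read lower later. At day 20 its samples of 4.3 and 9.1 lay below the day 14 samples of 41.2 and 51.9 (-1.47 ± 0.38, adjusted p = 0.0107), a call lost without sample 2 of day 14 (-1.34, adjusted p = 0.0832) or sample 1 of day 20 (-1.31, adjusted p = 0.0634). Cdh2, or N-cadherin, which joins Sertoli cells to each other and to germ cells, had 240.4 and 197.5 at day 56 against 29.0 and 125.2 at day 0 (1.55 ± 0.54, adjusted p = 0.0251). That rise rested on sample 1 of day 0, without which it was 0.73 (adjusted p = 0.343), and it was also lost without either day 56 sample (1.42, adjusted p = 0.116, and 1.69, adjusted p = 0.0638). Cdh3, or P-cadherin, was called over the days with its highest mean at day 3, but not in any of the intervals. The 6 other members of this group, Cdh1, Cdh4, Cdh13, Cdh17, Cdh24 and Cdhr1, were not called over the days.

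Cdhr4, a cadherin-related gene, rose between day 14 and day 20 and stayed high. It had 1066.5 and 1762.6 at day 20 against 217.5 and 249.0 at day 14 (2.48 ± 0.27, limma, adjusted p = 1.31e-05), and 1047.0 and 959.1 at day 56 against 283.1 and 261.1 at day 0 (1.82 ± 0.27, adjusted p = 3.07e-05). All samples from day 18 on, the lowest of which read 597.0, were above all earlier ones, the highest of which read 317.4. The 2 other probe sets of Cdhr4 rose as well, by 2.56 and 1.91 at day 20.

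The protocadherins were lower in the adult wherever they were called. Pcdh18 had 8.8 and 60.4 at day 56 against 872.5 and 840.1 at day 0 (-4.32 ± 0.54, adjusted p = 5.26e-06), and 13.8 and 33.1 at day 20 against 74.7 and 190.7 at day 14 (-1.84 ± 0.54, adjusted p = 0.0225). The day 20 call was lost without sample 2 of day 14 (-1.25, adjusted p = 0.231) or sample 1 of day 20 (-1.48, adjusted p = 0.136). Pcdhb17 had 82.9 and 34.5 at day 56 against 405.2 and 417.3 at day 0 (-2.6 ± 0.35, adjusted p = 1.07e-05). Pcdhb genes are near-identical neighbours on chromosome 18, so its probe set may read related transcripts. Pcdh9 had 20.8 and 24.7 at day 56 against 400.5 and 72.7 at day 0 (-2.31 ± 0.76, adjusted p = 0.0191). Without sample 1 of day 0 the change of Pcdh9 was -1.2 (adjusted p = 0.266), and without sample 1 or 2 of day 56 its adjusted p was 0.0804 or 0.0633. Pcdhb22 was called over the days only, and Pcdh10, Pcdh11x, Pcdh12, Pcdh17, Pcdhb7 and Pcdhb11 were not called.

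Among the 9 Ctnn genes, 3 were lower at day 56 than at day 0 and 1 was higher, against 21.2% and 15.9% of all genes. Ctnnb1, or β-catenin, had 436.7 and 457.1 at day 56 against 1462.5 and 2043.1 at day 0 (-1.91 ± 0.21, limma, adjusted p = 6.24e-07). Its day means stayed between 1683 and 2085 from day 0 to day 14, were 1022 ± 241 at day 18 and 738.2 ± 13.2 at day 20, and lay between 442 and 453.4 from day 30 on. The samples of day 20, 747.6 and 728.9, lay below those of day 14, 1444.4 and 1921.0 (-1.16 ± 0.21, adjusted p = 0.000753), although the change was under 2-fold with median scaling (-0.86) and without sample 2 of day 14 (-0.95). Ctnna1, or αE-catenin, had 79.6 and 108.2 at day 56 against 371.8 and 285.0 at day 0 (-1.65 ± 0.27, adjusted p = 6.37e-05), and its second probe set gave -1.91. Ctnnal1, or α-catulin, had 264.3 and 199.5 at day 20 against 582.1 and 645.7 at day 14 (-1.36 ± 0.29, adjusted p = 0.0031), and all 3 of its probe sets moved the same way. Its change between day 56 and day 0, -1.27 ± 0.29, was -0.87 (adjusted p = 0.045) without sample 1 of day 56.

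The other catenins did not share that course. Ctnnd1, or p120-catenin, had 332.3 and 374.2 at day 56 against 404.1 and 595.5 at day 0 and was not called (F-test, adjusted p = 0.114). Ctnnd2, or δ-catenin, stayed under 2-fold over the days on the log2(signal + 16) scale, with 80.8 and 67.1 at day 56 against 51.6 and 64.5 at day 0. Ctnna2, or αN-catenin, had 80.9 and 104.0 at day 56 against 102.5 and 110.7 at day 0, and was not called (adjusted p = 0.0716). Ctnna3 and Ctnnbip1 were not called either, although the 2 other probe sets of Ctnnbip1 read lower at day 56 than at day 0, with log2 changes of -2.66 and -1.34. Ctnnbl1 rose, with 585.2 and 1510.5 at day 20 against 283.8 and 303.2 at day 14 (1.63 ± 0.38, adjusted p = 0.0047) and 644.0 and 569.8 at day 56 against 138.0 and 340.4 at day 0 (1.41 ± 0.38, adjusted p = 0.00485). The day 20 call was lost without sample 2 of day 20 (0.96, adjusted p = 0.0809) and the day 56 call without sample 1 of day 0 (0.8, adjusted p = 0.111).

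The ephrin ligand Efna5 showed the largest log2 change of all members between day 56 and day 0. Ephrin-A5 is a lipid-anchored ligand best known for guiding axons. Its day means were 2246 ± 958, 1681 ± 423, 1027 ± 251, 621.7 ± 103, 450.1 ± 45.6, 233.4 ± 6.22, 115 ± 39.5, 94.8 ± 5.37, 64.8 ± 3.54, 51.05 ± 12.5 and 38.3 ± 24.9 at the 11 days from 0 to 56 (SD, n = 2 each). Each mean was below the one before. The change was -5.39 ± 0.35 between day 56, with 55.9 and 20.7, and day 0, with 2923.7 and 1568.3 (limma, adjusted p = 2.74e-09), and a second probe set gave -3.55. It was -1.77 ± 0.35 between day 8 and day 0 (adjusted p = 0.00995) and -1.17 ± 0.35 between day 20 and day 14 (adjusted p = 0.0255). The day 8 call was lost without sample 1 of day 0 (-1.32, adjusted p = 0.0887) or sample 2 of day 8 (-1.6, adjusted p = 0.113), and the day 20 call without any 1 of its 4 samples, with adjusted p between 0.0639 and 0.111.

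The B-type ligands fell less. Efnb1 had 318.8 and 292.3 at day 56 against 740.2 and 879.3 at day 0 (-1.36 ± 0.25, adjusted p = 0.000228), and its second probe set gave -2.22. Efnb2, the arterial ephrin, had 34.2 and 45.7 at day 56 against 102.2 and 172.0 at day 0 (-1.42 ± 0.41, adjusted p = 0.00882), a call lost without sample 2 of day 0 (-1.09, adjusted p = 0.0927) or sample 1 of day 56 (-1.27, adjusted p = 0.0641). Efnb3, Efna2 and Efna3 were not called over the days.

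The Eph receptors divided. Epha2 had 80.8 and 89.2 at day 0, read 5.2 and 16.6 at day 8 and did not exceed 29.1 on any array after day 0. It passed the signal filter only through its day 0 samples, so its calls at day 8 and day 56 relative to day 0, both -1.94 ± 0.29, only describe a gene that had to be lower on other days. Epha5 had 54.6 and 56.3 at day 56 against 126.8 and 248.9 at day 0 (-1.44 ± 0.47, adjusted p = 0.0182), but lost its call without sample 2 of day 0 (-1.0, adjusted p = 0.167) or either day 56 sample, with adjusted p of 0.0721 and 0.0659. Ephb1 had 265.6 and 270.2 at day 56 against 467.8 and 673.1 at day 0 (-1.02 ± 0.29, adjusted p = 0.00765), which without sample 2 of day 0 was -0.77 (adjusted p = 0.0859). Between day 35, with 201.5 and 237.8, and day 20, with 315.7 and 661.4, Ephb1 changed by -1.01 ± 0.29 (adjusted p = 0.0266), and by -0.5 (adjusted p = 0.285) without sample 2 of day 20. That call was lost without either day 35 sample as well (-0.9, adjusted p = 0.164, and -1.12, adjusted p = 0.0768).

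Receptors that rose were Epha6 and Epha10. Epha6 had 91.0 and 90.5 at day 56 against 29.5 and 19.0 at day 0 (1.42 ± 0.25, adjusted p = 0.000163), but it reached a signal of 50 only from day 30 on, so it had to read lower earlier. With a pseudocount of 64 the change was 0.81, under 2-fold. Epha10, whose human counterpart lacks kinase activity, had 245.2 and 235.6 at day 20 against 52.5 and 16.3 at day 14 (2.45 ± 0.63, adjusted p = 0.00951). It was not called between day 56 and day 0, with 155.1 and 67.0 at day 56 against 62.5 and 18.4 at day 0. Its day 20 call was lost without sample 2 of day 14 (1.9, adjusted p = 0.115). Epha3 was called over the days but passed the filter only through 1 sample of day 3 and 1 of day 6, where it was high, while Epha1, Epha7, Epha8, Ephb3 and Ephb6 were not called.

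No semaphorin was higher in the adult than at birth by the test, and 8 of 16 were lower, where 15.9% of all genes were higher and 21.2% lower. Sema3c, a secreted class 3 semaphorin, had 11.4 and 20.1 at day 56 against 250.9 and 128.2 at day 0 (-2.64 ± 0.42, limma, adjusted p = 5.45e-05). At day 20 it had 67.7 and 6.7, against 163.2 and 208.8 at day 14, without overlap (-2.2 ± 0.42, adjusted p = 0.00138). The other 2 probe sets of Sema3c fell at day 20 by 1.87 and 1.35, but at day 56 the dimmer of them stood at -0.28. The membrane-bound Sema6d had 82.8 and 109.7 at day 56 against 482.0 and 278.5 at day 0 (-1.78 ± 0.29, adjusted p = 6.15e-05), while a second probe set gave -0.32. The day 20 call of Sema6d, at -1.16 ± 0.29 relative to day 14, was lost without sample 1 of day 14 (-1.1, adjusted p = 0.0618) or sample 2 of day 20 (-0.9, adjusted p = 0.0729).

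Sema4d, a transmembrane semaphorin also known from lymphocytes, had 15.5 and 58.8 at day 56 against 91.4 and 125.0 at day 0 (-1.34 ± 0.36, adjusted p = 0.0047). Without the low sample 1 of day 56 the change was -0.72 (adjusted p = 0.128). Sema7a, the lipid-anchored semaphorin, had 121.8 and 76.8 at day 56 against 194.5 and 296.9 at day 0 (-1.18 ± 0.23, adjusted p = 0.000328), and was highest at day 14. It was under 2-fold without sample 2 of day 0 or of day 56 (-0.9 in both), and its second probe set gave -0.07. Sema3g, Sema4b, Sema5b and Sema6c also fell at day 56, between -1.13 and -1.63. Of these Sema4b lost its call in 20 of 32 alternatives, Sema5b without sample 2 of day 0 (-0.69, adjusted p = 0.0997), and Sema6c without sample 2 of day 0 (-1.0, adjusted p = 0.132) or of day 56 (-1.19, adjusted p = 0.0971).

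Sema4a was the semaphorin with a rise. Its samples at day 35, 185.0 and 203.6, lay above those at day 20, 29.6 and 73.2 (1.72 ± 0.44, adjusted p = 0.0147). At days 56 and 0 it read 127.2 and 165.9 in the adult and 128.9 and 111.0 in the newborn, and every sample from day 10 to day 20 lay below all 4 of these. The call was lost without sample 1 of day 20 (1.24, adjusted p = 0.125) or either day 35 sample, with adjusted p of 0.0706 and 0.0912. Sema3a, a secreted axon repellent, had 53.5 and 51.4 at day 56 against 68.8 and 98.1 at day 0, and Sema6a had 7.8 and 66.5 at day 56 against 54.0 and 58.9 at day 0. Neither was called over the days, and nor were Sema3d, Sema4c, Sema4f, Sema4g and Sema5a. Over the days 7 of the 16 semaphorins were called, fewer than the 8 called lower at day 56. A semaphorin called in an interval was thus not always called over the days.

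The other intervals held few calls. Between day 8 and day 0, 3 members were called, Itgbl1 higher and Epha2 and Efna5 lower, which is 3.5% against 2.68% of all genes (1.4% higher and 1.28% lower). The count was 1 without sample 1 of day 0 or sample 2 of day 8, and 5 without either day 20 sample. Between day 14 and day 8 no member was called in limma against 1.43% of all genes (1.14% higher and 0.297% lower), and 4 of 85 members had an unadjusted p under 0.05, as did 1414 of all 13472 genes. Between day 35 and day 20, 5 members were called (5.9%) against 10.4% of all genes (6.08% higher and 4.36% lower): Itga1, Sema4a and Itga11 were higher and Itgb1 and Ephb1 lower. Median scaling gave 4 higher and 1 lower, and leaving out sample 1 or sample 2 of day 35 gave 2 or 3 calls. Between day 56 and day 35 no member was called in limma, against 0.0% of all genes, and 7 members had an unadjusted p under 0.05, as did 1254 of all genes.

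The genes known to work with these families were counted from lists of textbook partners, with changes on the log2 scale. Of 18 measured matrix ligands of integrins, 12 were lower and 1 higher at day 56 than at day 0. The collagen IV chain gene Col4a1 had 114.7 and 156.7 at day 56 against 1563.1 and 2107.5 at day 0 (-3.61, adjusted p = 9.93e-08), and Vcam1, named after its value was seen, was the gene that rose (1.55, adjusted p = 0.000251). Of 20 adaptors and kinases of integrins, 11 were lower and 3 higher. Parva, or α-parvin, had 38.4 and 75.7 at day 56 against 466.2 and 1045.8 at day 0 (-3.34, adjusted p = 2.77e-07), and Actn1, Ilk and Vasp fell by 2.53, 2.38 and 1.97. The 3 that rose, named after their values were seen, were Lims2 (1.67), the talin gene Tln2 (1.46) and Parvg (1.18). The all-gene shares for this interval were 15.9% higher and 21.2% lower.

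Of the desmosome and adherens junction genes 37.5% were called at day 56 over day 0, as were 35.3% of the β-catenin signalling genes. For the Eph signalling partners it was 33.3%, and all 3 shares were near the 37.1% of all genes. For semaphorin receptors and their effectors it was 57.1%. Of 16 desmosome and adherens junction genes, 4 were lower at day 56 than at day 0 and 2 higher, where 21.2% of all genes were lower and 15.9% higher. Nectin3, which joins spermatids to Sertoli cells through nectin-2, had 1773.2 and 1255.3 at day 56 against 53.4 and 60.2 at day 0 (4.37, adjusted p = 6.65e-08). Ptprk (-2.8), Nectin1 (-2.23) and the desmoplakin gene Dsp (-1.83) fell. Of 17 β-catenin signalling genes, 4 were lower, among them the target gene Axin2 (-1.93, adjusted p = 0.000913), and 2 were higher, Btrc and Dvl1. Of 14 semaphorin receptors and their effectors, 8 were lower and none higher, the largest fall being that of the effector Dpysl2 (-3.45, adjusted p = 2.48e-08) and the next that of Plxna1 (-2.51, adjusted p = 4.7e-06). Of 15 Eph signalling partners, 3 were lower, Abl1, Fyn and Grip2, and 2 higher, Grip1 and, named after its value was seen, Pick1.

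Further probe sets of called members were compared with the one used. For day 56 over day 0, 19 called members had 25 further probe sets, of which 23 had the same sign and 18 were also at least 2-fold. For day 20 over day 14, 11 called members had 17 further probe sets, and all 17 had the same sign, 10 of them at least 2-fold. The exceptions at day 56 were probe sets of Itga1 and Itgb5. For day 35 over day 20, 2 of 3 further probe sets had the same sign and 0 were at least 2-fold. Probe sets of members not called could differ widely at day 56 over day 0, as in Ctnnbip1 (0.31 for the one used, -2.66 for another), Itgb1bp1 (-0.13 and 1.95) and Ephb6 (0.65 and -1.01), which were picked out after their values were seen.

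**Figure D4:**
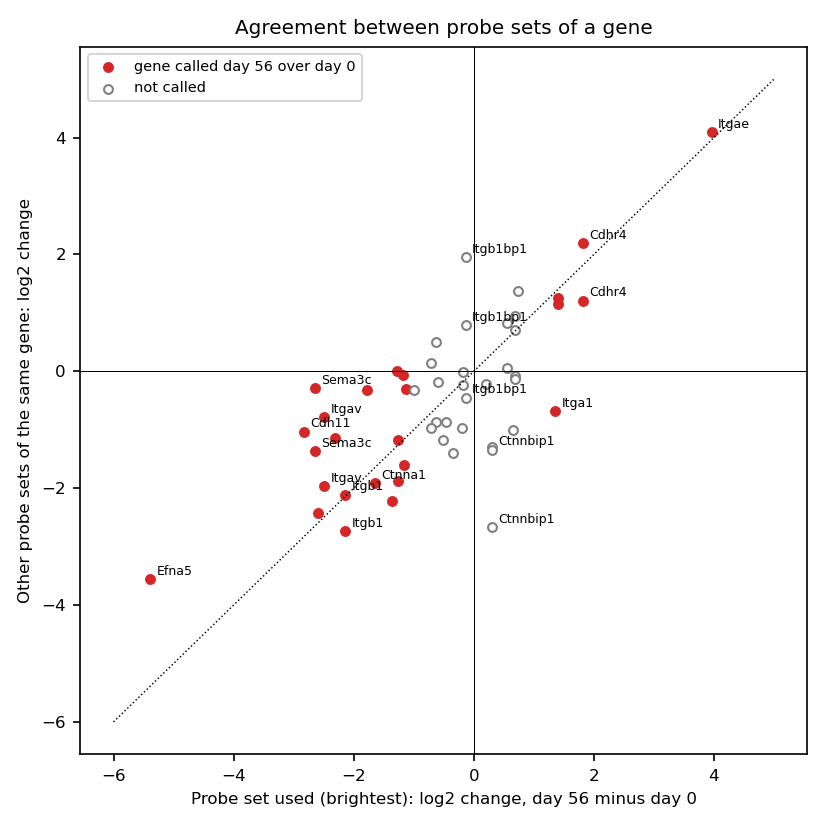
Each point sets a further probe set of a member (vertical axis) against the probe set used (horizontal axis), both as log2 change at day 56 relative to day 0. Red points belong to called members, open points to members not called, and the dotted line marks equality. The point of Itga1 lies at 1.36 on the horizontal axis and -0.68 on the vertical axis.

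Some members kept the same order of the numbered samples. At all 8 days from 0 to 20, sample 1 read higher than sample 2 in 3 members, Sema5a, Pcdh9 and Ctnna1, and lower in 7, Cdh2, Epha1, Ephb1, Itgbl1, Pcdh17, Sema5b and Sema6c. Sema5a had 827.6 in sample 1 and 247.7 in sample 2 at day 0, and 835.7 and 174.1 at day 6, and it was not called over the days (F-test, adjusted p = 0.0723). At day 56 its samples read 96.4 and 117.4.

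**Figure D5:**
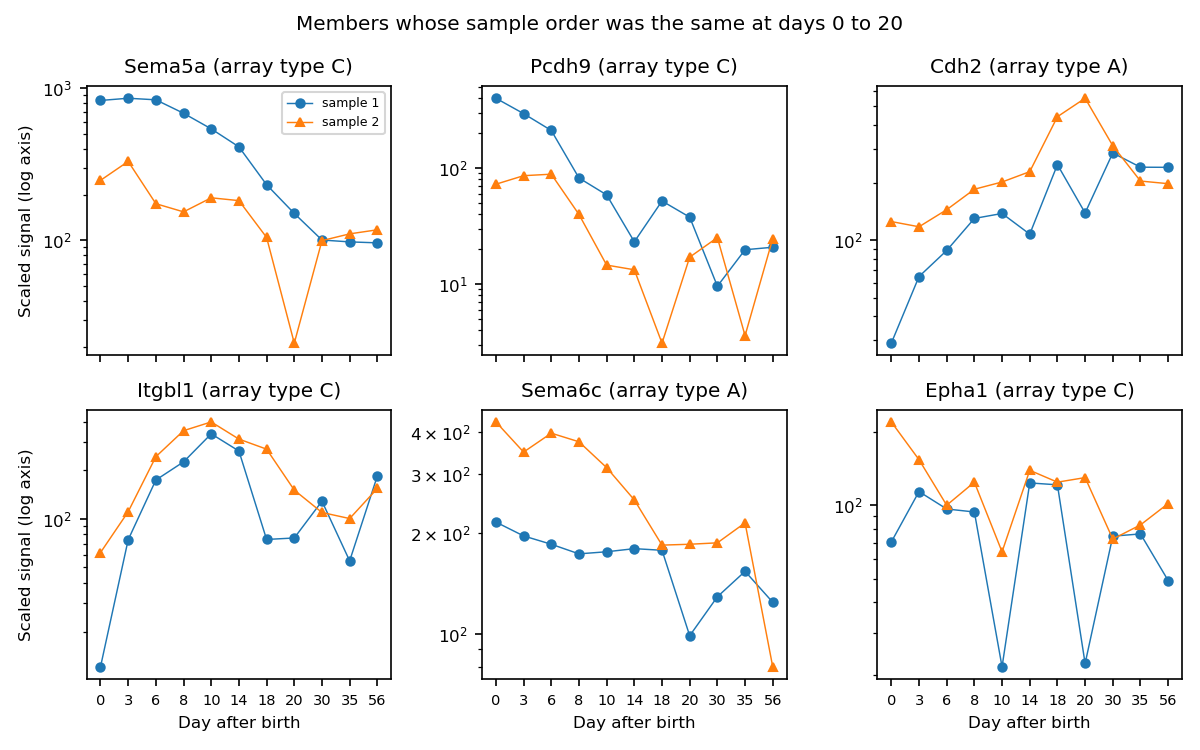
Signals of 6 members by day on log axes, with circles for sample 1 and triangles for sample 2. In each panel the 2 samples keep one order at all 8 days from 0 to 20.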

How the data were processed

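Total testis RNA was hybridised to 3 array types, and the deposited values are signal intensities per probe set that the authors scaled to a mean signal of 125 per array, per the labels. The trimmed mean of each array, with 2% left out at each end, was 125 to 125.1. Which program computed these signals is not given in the sources used here.

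Of 36899 probe sets, 198 were controls, 29131 named 1 gene, 724 several and 6846 none. Signals were analysed as log2(signal + 16) with limma 3.58.1 in R 4.3.3, one mean per day for each array type, with 11 residual degrees of freedom per probe set. Probe sets with a signal of 50 on at least 2 arrays were kept (22191), and the brightest stood for its gene (13472 genes). P-values were adjusted over these genes by the Benjamini-Hochberg method, and a call needed an adjusted p under 0.05 and a change of 2-fold. Arrays give no read depth, and 2 samples per day limit the precision and allow no test for outlying samples.

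The members, gene lists and tests were chosen with earlier results of these data known. Values per sample were given for a fixed list of members and for up to 5 rises and 5 falls per interval among called members whose samples did not overlap, and partner genes were named for up to 4 called changes per list. Alternatives were other pseudocounts, filters, scalings and probe set choices, a sample-number block, and leaving out samples.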

Additional observations from a re-analysis of the deposited data

How the results depend on the processing

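Of 60 calls of members between days, 16 held under all 32 alternatives and 29 held without each sample in turn. For day 20 over day 14 these were 4 and 6 of 16 calls, for day 56 over day 0 they were 12 and 20 of 36, for day 8 over day 0 they were 0 and 1 of 3, and for day 35 over day 20 they were 0 and 2 of 5. A gene not measured under an alternative was counted as not holding. For day 56 over day 0 that was the only loss of Epha2, Pcdh18, Pcdhb17 and Sema3g, whose calls held wherever they were measured. With a pseudocount of 64 the calls numbered 5 for day 8 over day 0, 1 for day 14 over day 8, 10 for day 20 over day 14 and 3 for day 35 over day 20. Median scaling gave 10 for day 20 over day 14, leaving out suffixed probe sets gave 3 for day 35 over day 20, and taking days 0 and 20 from 1 sample each gave 1 for day 14 over day 8. Without suffixed probe sets the change of Itga1 turned to -0.68 for day 56 over day 0 and to -0.02 for day 35 over day 20. Leaving out 1 sample at a time gave 40 to 46 calls over all days, 1 to 5 for day 8 over day 0, 0 to 1 for day 14 over day 8, 8 to 17 for day 20 over day 14, 2 to 7 for day 35 over day 20, 0 to 0 for day 56 over day 35 and 29 to 38 for day 56 over day 0. The causes were not tested. The labels do not say that samples with the same number at different days belong together. Their deviations correlated with r between -0.21 and 0.55 on type A, -0.01 and 0.39 on type B and -0.07 and 0.29 on type C, with medians of 0.1, 0.13 and 0.07, and r was over 0.1 in 28, 34 and 23 of 55 pairs of days, so whether the numbers pair the samples is not settled. A replicate block on that number gave 1 call for day 56 over day 35 in place of 0. Signals near the pseudocount of 16 limit what dim members can show.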
